A study of Mus musculus with 15 samples.

Results

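The clustered protocadherins and Pcdh11x were described in the midbrain of transgenic and wild-type mice that did or did not receive carnosine, a natural dipeptide built from beta-alanine with histidine. The genes were taken by name: protein-coding mouse symbols of the Pcdha, Pcdhb and Pcdhg families, together with Pcdh11x, with at least 1 count in at least 3 of the 15 libraries. This gave 55 genes of the 24454 rows of the count table, made up of 11 genes of the alpha cluster, 22 of the beta cluster, 21 of the gamma cluster and Pcdh11x. The libraries fell into 5 groups of 3. Transgenic Thy1-aSyn (TG) mice were given 2 mg of carnosine intranasally, were given 10 mM carnosine in drinking water, or were controls. Wild-type BDF1 (WT) mice were given 2 mg intranasally or were controls. By its name the transgene carries alpha-synuclein under the Thy1 promoter, which is active mainly in neurons. Mice entered at 2 months of age and treatment lasted 2 months. No WT mice had carnosine in their water, and nothing in the labels says how the control mice were handled or whether a library holds 1 animal or several, so p-values measure the spread between these libraries.

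Clustered protocadherins are homophilic adhesion proteins of the neuronal surface. In the alpha and gamma clusters each transcript joins a variable exon, which has its own promoter and encodes the extracellular part, to constant exons shared by the whole cluster, whereas beta genes stand alone without constant exons. Single neurons choose a few variable promoters, a choice that involves CTCF, cohesin and DNA methylation, and the resulting mix lets branches of the same neuron recognise and avoid each other. The C-type isoforms are expressed more uniformly. Among them Pcdhac2 is needed for the spacing of serotonergic axons and Pcdhgc4 for neuronal survival. Pcdh11x, an X-linked member of the delta protocadherins, lies outside the clusters. Gamma protocadherins are also made by astrocytes.

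Library totals were 13202199 to 60542423 counts, of which 1318 to 18160 came from the 55 genes. Levels are given as CPM, counts scaled to a common library size after TMM normalization. As a check of the labels, Thy1, the gene whose promoter drives the transgene, had 3300 to 5030 CPM in the 9 TG libraries and 444 to 694 CPM in the 6 WT libraries. Several libraries stood apart. WT control 1 and TG control 1 held summed pituitary markers (6 genes) of 857 and 684 CPM, against 4.52 to 164 CPM in the other libraries. WT intranasal 2 and 3 held 14.4 and 18.6 CPM of Gabra6, a cerebellar granule cell gene, and TG drinking water 3 held 12.6 CPM, against at most 2.46 CPM elsewhere. The sum of 8 cerebellar markers, Gabra6 among them, did not set these libraries apart. It was 334, 344 and 346 CPM in them, against 197 to 425 CPM in the other libraries. TG control 2 had the most astrocyte marker RNA (7870 CPM summed over 6 genes), WT intranasal 2 and 3 followed (5190 and 5750 CPM) and WT control 1 had the least (1540 CPM). Midbrain was also checked by its neurons: dopamine markers (5 genes) summed to 25.4 to 145 CPM and serotonin markers (4 genes) to 16.1 to 93.7 CPM, with no marker at 0 in every library. A row with no gene name, the most abundant of its kind, took more than 1% of counts in 8 libraries (all 6 WT libraries, TG control 1 and TG control 2) and less in the other 7, so this split nearly follows genotype and treatment.

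The gene that dominated each cluster was a C-type isoform in alpha and in gamma. Levels were compared per kb of exon outside the constant exons, as annotated in GENCODE vM21. Over the 15 libraries Pcdhgc3, a gamma isoform that promotes dendrite branching, stood at 18.5 ± 7.28 CPM per kb (SD, n = 15), and the next gamma gene, Pcdhgc5, at 3.63 ± 1.45 CPM per kb. The lowest gamma gene was Pcdhgb5 at 0.396 ± 0.218 CPM per kb. In the alpha cluster Pcdhac2 reached 3.67 ± 0.910 CPM per kb, and Pcdha12 came next at 0.866 ± 0.312. Pcdha8 was lowest at 0.0465 ± 0.0715 CPM per kb.

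The beta cluster was led by Pcdhb9 at 2.06 ± 0.542 CPM per kb. Pcdhb17 at 1.25 ± 0.291 and Pcdhb20 at 1.15 ± 0.289 came next, and Pcdhb1 was lowest at 0.0534 ± 0.0673. Pcdh11x averaged 0.382 ± 0.346 CPM per kb. At the top of each order the leading gene lay above the next by more than either SD. The gap was widest for Pcdhgc3 and Pcdhac2, whose lowest libraries lay above the highest libraries of all other alpha genes (for Pcdhac2) and of all other gamma genes (for Pcdhgc3). As shares of counts, Pcdhac2 took 50.7% of the alpha cluster over all libraries (42.8% to 58.2% by library) and Pcdhgc3 took 42.3% of the gamma cluster (34.4% to 52.3%). In TG drinking water Pcdhgc3 held 37.4% ± 2.90 of gamma counts, in TG intranasal 43.2% ± 8.59, in TG control 43.8% ± 0.766, in WT intranasal 43.7% ± 1.32 and in WT control 44.2% ± 2.23 (SD, n = 3 each).

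**Figure D1:**
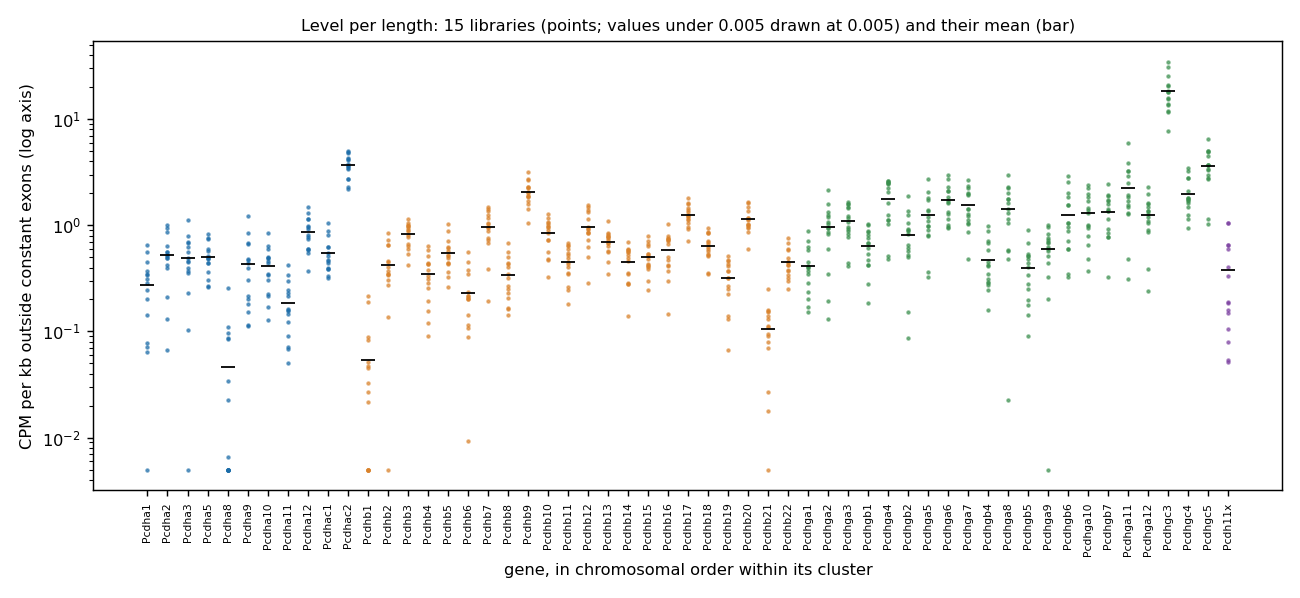
Level of the 55 genes in CPM per kb of exon outside the constant exons (log axis), in chromosomal order within the alpha (blue), beta (orange) and gamma (green) clusters with Pcdh11x (purple) at the right; points are the 15 libraries and bars their mean. Pcdhgc3 at 18.5 and Pcdhac2 at 3.67 CPM per kb stand above the other genes of their clusters, and Pcdhb9 leads the beta genes at 2.06 CPM per kb.

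Some rows were at or near 0. Pcdha4, Pcdha6 and Pcdha7 were listed at 0 in all 15 libraries and so are not among the 55. In RefSeq (GRCm38.p6) they start within 41, 6 and 9 bases of an overlapping predicted gene, Gm37013, Gm38666 and Gm38667, whose rows held 0, 3 and 0 counts in all. How the counting treated reads that fit both was not given, so these zeros show only what the table lists. Pcdha8 and Pcdhb1 fell below the filter on low counts. Pcdha8 had 0 counts in all 3 TG intranasal libraries, 6, 0 and 1 counts in TG drinking water, 3, 3 and 11 in TG control, 0, 1 and 7 in WT intranasal and 1, 0 and 0 in WT control. Pcdhb1 had 0 to 3 counts in every TG library, against 0 to 16 in the WT libraries. A count of 0 allows up to 3 counts, which is 0.0491 CPM in the deepest library and 0.253 CPM in the shallowest. Outside the rule, Pcdhgb8 lies in the gamma cluster but is annotated as a transcribed pseudogene. Alpha and gamma genes share the bases of their constant exons with all other genes of the cluster, and beta genes resemble each other closely. Some exons outside the constant ones also overlap another gene. Of such bases, Pcdhga4 has 1570 of 2608 to itself, Pcdhgc3 1821 of 3380 and Pcdhga10 0 of 2613, while Pcdhga6 has all 2614. The split of reads between isoforms thus depends on how the authors counted, and single-isoform values are uncertain to that degree.

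Across the 15 libraries the gamma genes moved together more than the others did. For each pair of genes in a cluster the correlation of log2 CPM over the 15 libraries was taken, as a description that shares library depth and tissue makeup. The median r was 0.707 over 210 gamma pairs, 0.353 over 210 beta pairs and 0.219 over 45 alpha pairs, and after the group means were removed 0.67, 0.271 and 0.264. The summed gamma level was 113, 109 and 77.7 CPM in TG intranasal, 132, 182 and 163 CPM in TG drinking water, 105, 273 and 160 CPM in TG control, 146, 192 and 236 CPM in WT intranasal, and 55.7, 168 and 120 CPM in WT control. Both control groups spread more widely than the 2 TG carnosine groups.

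The extremes were single libraries. In WT control 1 none of the 21 gamma genes lay above its 15-library mean, with a median deviation of -1.49 on the log2 scale, whereas in TG control 2 all 21 did, with a median of 0.98. These are the libraries with the least and the most astrocyte marker RNA. TG intranasal 3 had a median of -1.17 with 1 of 21 genes above its mean, at 2720 CPM of astrocyte markers, near the other TG carnosine libraries (2780 to 3240 CPM). The deviations of the clustered genes in TG intranasal 3 also scattered with an SD of 1.25, against 0.310 to 0.707 in the other libraries. It listed 6 of the 55 genes at 0 although it held 34843691 counts, and the other libraries listed 0 to 3. The part of astrocyte content in the gamma levels was not tested, and in bulk tissue fewer cells of a type and less RNA per cell cannot be told apart.

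**Figure D2:**
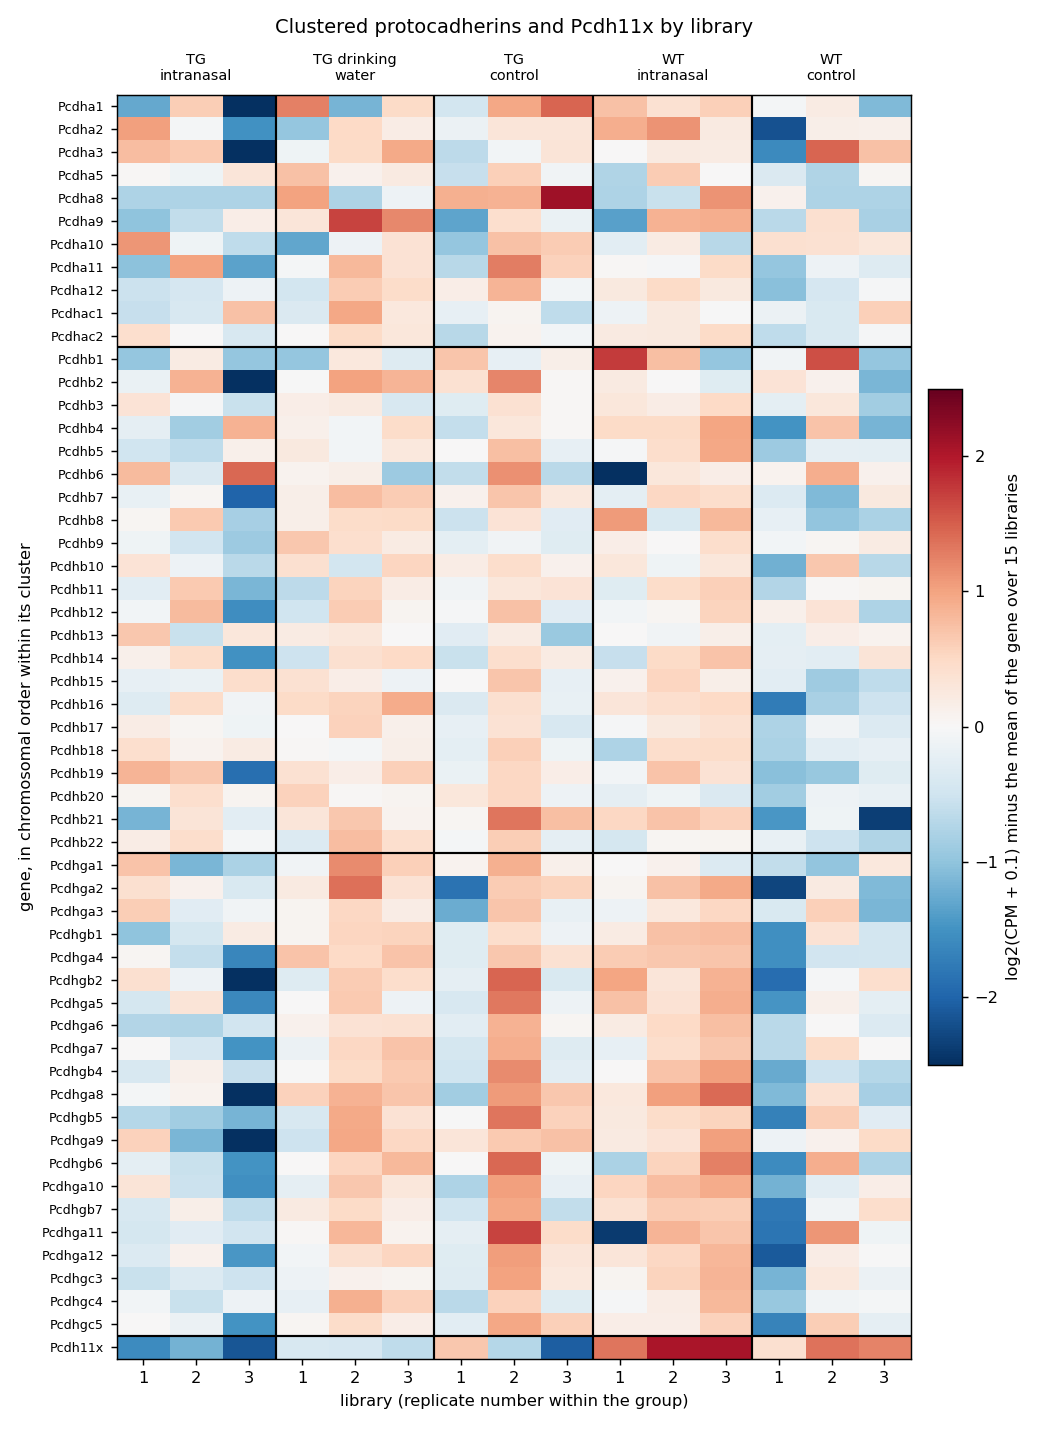
Level of the 55 genes in each library as log2(CPM + 0.1) minus the mean of that gene over 15 libraries, with genes in chromosomal order within the clusters (rows) and libraries by group (columns). The gamma block is red throughout TG control 2 (median deviation 0.98) and blue throughout WT control 1 (-1.49), and the Pcdh11x row at the bottom is red in the WT columns and blue in most TG columns.

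**Figure D3:**
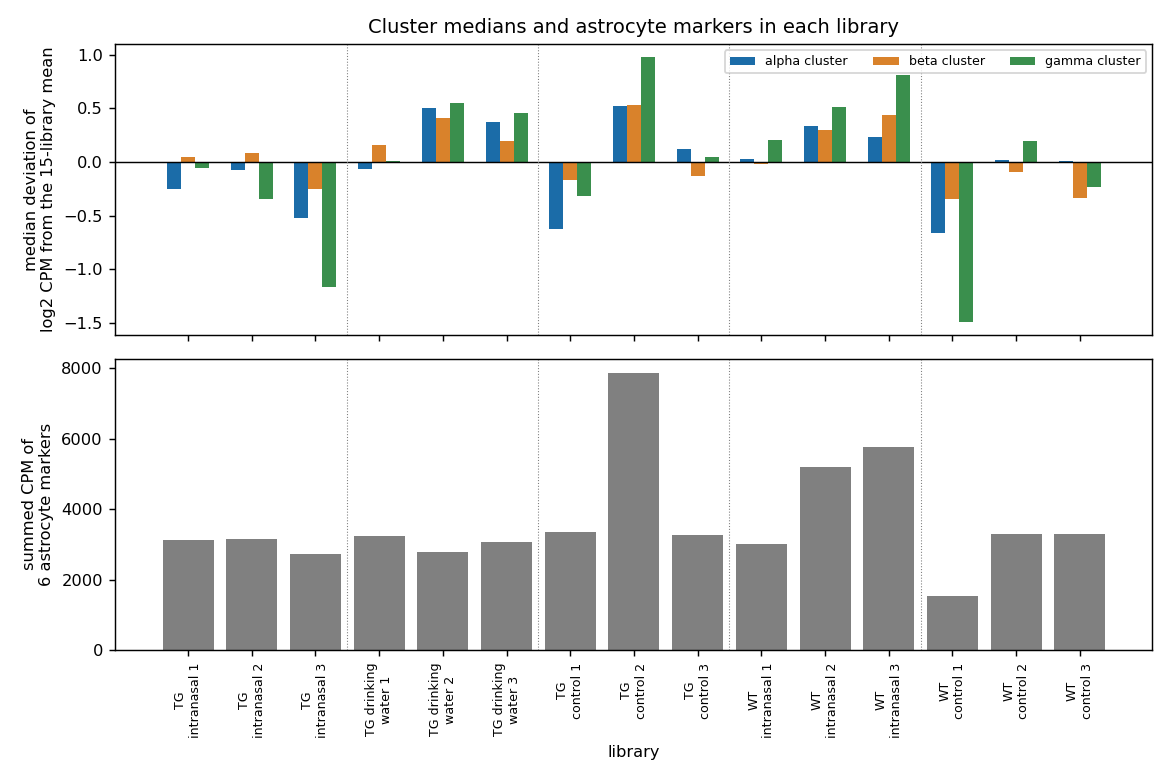
Median deviation of log2 CPM from the 15-library mean for the tested genes of the alpha (10), beta (21) and gamma (21) clusters (upper bars), and the summed CPM of 6 astrocyte markers (lower bars), for each library. TG control 2 has the highest gamma median and 7870 CPM of astrocyte markers, WT control 1 the lowest gamma median and 1540 CPM, and TG intranasal 3 a gamma median of -1.17 at 2720 CPM.

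The effect of genotype without carnosine was addressed by TG control against WT control. Most clustered protocadherins lay higher in TG, with a median log2 fold change of 0.59 over the 53 genes tested (46 higher, 7 lower) against 0.02 over all 15818 genes, of which 52% were higher. All 21 gamma genes were higher (median 0.70), as were 18 of 21 beta genes (median 0.53) and 7 of 10 alpha genes (median 0.28). None of the 53 passed an adjusted p of 0.05 in edgeR's quasi-likelihood test, which called 2 of 15818 genes (0.0126%), or in DESeq2, which called 2.63% of all genes. At an unadjusted p under 0.05 edgeR had 5 of the 53 higher, beside 8.8% of all genes, and 1 lower, Pcdh11x, beside 9.27%. The direction rested much on TG control 2: without it the median was 0.23, and without WT control 1 it was 0.33.

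The smallest p in the gamma cluster was that of Pcdhga4. It had 3.28, 6.58 and 5.34 CPM in TG control, against 1.35, 2.91 and 2.95 CPM in WT control, so the libraries did not overlap; the log2 fold change was 1.06 ± 0.40 (SE, adjusted p = 0.201). In the beta cluster Pcdhb16 had 2.14, 3.71 and 2.44 CPM in TG control, against 0.758, 1.55 and 1.92 CPM in WT control, without overlap, at 0.95 ± 0.37 (adjusted p = 0.217). Libraries failed to overlap, with TG higher, for 8 of 52 clustered genes, beside 7.37% of all genes tested. With TG lower this held for Pcdhb9 alone, beside 9.07%. Pcdhb9 had 5.13, 5.74 and 4.87 CPM in TG control, against 5.81, 6.31 and 6.99 CPM in WT control.

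Pcdhgb4 had a log2 fold change of 1.21 ± 0.52 (adjusted p = 0.244), Pcdhb21 of 2.30 ± 0.91 (adjusted p = 0.219) with at most 1.19 CPM in any library of either group, and in the alpha cluster Pcdha12 of 0.83 ± 0.41 (adjusted p = 0.296) and Pcdha11 of 1.13 ± 0.76 (adjusted p = 0.435). None of these passed.

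Intranasal carnosine in WT mice was set against WT control. All 21 gamma genes lay higher in WT intranasal (median log2 fold change 0.76), as did 20 of 21 beta genes (0.54) and 7 of 10 alpha genes (0.65). Over the 53 genes the median was 0.66, with 49 higher, against 0.02 over all genes, of which 52.2% were higher. edgeR called 0 of the 53 and 159 of 15818 genes (1.01%), while 13 of the 53 had an unadjusted p under 0.05, all higher, beside 11.7% of all genes (12.3% of all genes were lower). DESeq2 called 2 of the 53 (3.77%), Pcdhga4 and Pcdhb16, beside 9.12% of all genes, so the members' share was below that of all genes.

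Pcdhb16 had 3.46, 3.77 and 3.98 CPM in WT intranasal, against 0.758, 1.55 and 1.92 CPM in WT control (log2 fold change 1.38 ± 0.36, adjusted p = 0.0616). Pcdhga4 had 6.36, 6.58 and 6.68 CPM in WT intranasal, against 1.35, 2.91 and 2.95 CPM in WT control (1.43 ± 0.39, adjusted p = 0.0651). Both genes stood clear of the controls in every treated library, and the 3 treated values of each lay close together. This separation held for 18 of 52 clustered genes with WT intranasal higher, beside 13.2% of all genes, and for Pcdha10 with WT intranasal lower, beside 13.4%.

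The C-type isoform Pcdhac2 was among the 18. It had 12.5, 12.7 and 14.97 CPM in WT intranasal, against 6.91, 8.23 and 10.52 CPM in WT control (0.64 ± 0.25, adjusted p = 0.134). Serotonin markers ran from 23.1 to 84.4 CPM in WT intranasal and from 21.1 to 93.7 CPM in WT control, so these groups overlapped widely. The part of serotonin neuron content in the Pcdhac2 level was not tested. Pcdhgb4 (1.52 ± 0.51, adjusted p = 0.0997), Pcdhb8 (1.36 ± 0.57, adjusted p = 0.163) and Pcdha12 (0.79 ± 0.41, adjusted p = 0.244) had the next smallest p of their clusters. Summed astrocyte markers were 3010 to 5750 CPM in WT intranasal and 1540 to 3290 CPM in WT control. Without WT intranasal 2 and 3, which leaves a single treated library assumed to vary like the other groups, the median over the 53 was 0.37 and that of gamma 0.51, while the alpha median was -0.22. Without WT control 1 the medians were 0.45 over the 53 and 0.45 in gamma.

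The same dose by the nose in TG mice, set against TG control, went with a lower gamma cluster. In TG intranasal 20 of 21 gamma genes lay lower (median log2 fold change -0.89), while beta (12 of 21 lower, median -0.11) and alpha (5 of 10 lower, median -0.01) were near the median of all genes (-0.003). No gene of the 53 was called by edgeR, which called 1 of 15818 genes (0.00632%), or by DESeq2, which called 0.12%. At an unadjusted p of 0.05, 7 of the 53 were lower, 6 of them gamma genes and the other Pcdh11x, beside 5.92% of all genes, and 0 were higher, beside 3.82%.

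Pcdhga6 had 2.51, 2.46 and 2.99 CPM in TG intranasal, against 3.49, 7.83 and 4.35 CPM in TG control (-0.97 ± 0.31, adjusted p = 0.51). Pcdhgb5 had 0.922, 0.820 and 0.652 CPM in TG intranasal, against 1.57, 4.13 and 2.38 CPM in TG control (-1.75 ± 0.55, adjusted p = 0.51). In both genes every treated library lay below every control library. This held for 7 of 52 clustered genes with TG intranasal lower, beside 5.86% of all genes, and 5 of the 7 were gamma genes. For no clustered gene did the treated libraries all lie above the controls, as they did in 5.95% of all genes.

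TG control 2 set much of this value. Without it the median over the 53 was 0.02 and that of gamma -0.30, and without TG intranasal 3 the gamma median was -0.50. Without both pituitary-rich libraries edgeR called 1 of the genes, Pcdhgc3 (-1.15, adjusted p = 0.0485). Summed astrocyte markers were 2720 to 3160 CPM in TG intranasal and 3250 to 7870 CPM in TG control. Pcdhb7 (-0.89 ± 0.47, adjusted p = 0.523), Pcdhb21 (-1.27 ± 0.80, adjusted p = 0.564), Pcdha12 (-0.75 ± 0.40, adjusted p = 0.527) and Pcdha1 (-1.65 ± 1.01, adjusted p = 0.558) had the smallest p of the other clusters.

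Carnosine in the drinking water of TG mice, set against the same TG controls, left the clusters near the middle. The median log2 fold change was 0.05 over the 53 genes, with 27 higher and 26 lower, and 0.05 in gamma, 0.06 in beta and 0.14 in alpha. edgeR called 0 of the 53 and 1 of 15818 genes (0.00632%), and DESeq2 called 0 of the 53 and 1.18% of all genes. A single gene, Pcdhb9, had an unadjusted p under 0.05 with a higher level, beside 2.71% of all genes, and 0 had a lower one, beside 5.36%. It had 9.73, 8.20 and 6.98 CPM in TG drinking water, against 5.13, 5.74 and 4.87 CPM in TG control (0.66 ± 0.24, adjusted p = 0.433).

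Pcdhb9 and Pcdhb16 (0.69 ± 0.35, adjusted p = 0.659) were the 2 of 52 clustered genes whose drinking-water libraries all lay above the controls, beside 6.44% of all genes. None lay entirely below them, beside 8.22%. Pcdha9 (1.47 ± 0.72, adjusted p = 0.646), Pcdhac2 (0.46 ± 0.25, adjusted p = 0.692), Pcdhgc4 (0.53 ± 0.36, adjusted p = 0.793) and Pcdhgc3 (-0.40 ± 0.32, adjusted p = 0.833) had the smallest p in alpha and gamma. Here too TG control 2 mattered: without it the median over the 53 was 0.50 and that of gamma 0.58.

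The 2 routes in TG mice can be set against each other without any control library, although 2 mg by the nose and 10 mM in water are not matched doses. All 21 gamma genes lay lower in TG intranasal than in TG drinking water (median log2 fold change -0.76), as did 18 of 21 beta genes (-0.19) and 8 of 10 alpha genes (-0.36). Over the 53 genes the median was -0.63 with 48 lower, against 0.02 over all genes, of which 52.1% were higher. edgeR called 0 of 15818 genes (0%), so none of the 53, and DESeq2 also called 0 of the 53, beside 0.152% of all genes. At an unadjusted p of 0.05, 8 of the 53 were lower, beside 4.48% of all genes, and 0 were higher, beside 2.78%.

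Pcdhb9 had the smallest p, with 5.63, 4.35 and 3.201 CPM in TG intranasal, against 9.73, 8.20 and 6.98 CPM in TG drinking water (-0.92 ± 0.24, adjusted p = 0.553). Pcdhga4 had 4.26, 2.67 and 1.25 CPM in TG intranasal, against 6.80, 5.79 and 6.76 CPM in TG drinking water (-1.24 ± 0.38, adjusted p = 0.553). Pcdhga6 followed, with 2.51, 2.46 and 2.99 CPM in TG intranasal, against 4.54, 5.48 and 5.54 CPM in TG drinking water (-0.96 ± 0.30, adjusted p = 0.553). None of the 3 genes overlapped between the groups.

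Such separation, with TG intranasal lower, held for 13 of 52 clustered genes and for Pcdh11x, beside 9.14% of all genes, and 9 of the 13 were gamma genes, among them Pcdhgc3 and Pcdhgc5. The opposite separation held for none, beside 7.63%. Pcdhgc3 had 39.9, 45.8 and 40.6 CPM in TG intranasal, against 53.2, 62.7 and 61.4 CPM in TG drinking water (-0.49 ± 0.32, adjusted p = 0.699). Astrocyte marker sums of the 2 groups were alike, 2720 to 3160 CPM in TG intranasal and 2780 to 3240 CPM in TG drinking water. Without TG intranasal 3 the median over the 53 was -0.42 and that of gamma -0.55. Pcdhb7 (-1.06 ± 0.46, adjusted p = 0.662), Pcdha9 (-1.70 ± 0.71, adjusted p = 0.655) and Pcdha12 (-0.67 ± 0.40, adjusted p = 0.696) complete the smallest p of each cluster.

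Whether intranasal carnosine went with different changes in the 2 genotypes was tested by the interaction, the log2 fold change in TG minus that in WT. Pcdhga4 and Pcdhga6 passed, both in the negative direction. They were the only 2 of the 53 that edgeR called, where it called 367 of 15818 genes (2.32%), 142 of them negative (0.898%). Both genes encode gamma isoforms of the A type, whose variable extracellular parts take part in homophilic recognition.

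For Pcdhga4 the change was -0.90 ± 0.38 in TG (4.26, 2.67 and 1.25 CPM intranasal, against 3.28, 6.58 and 5.34 CPM in control) and 1.43 ± 0.39 in WT. The difference was -2.32 ± 0.55 (adjusted p = 0.0487). For Pcdhga6 it was -0.97 ± 0.31 in TG and 0.81 ± 0.30 in WT, where it had 4.88, 6.01 and 7.18 CPM in WT intranasal, against 2.61, 4.27 and 3.34 CPM in WT control, and the difference was -1.79 ± 0.43 (adjusted p = 0.0487). In WT all treated libraries of both genes lay above all controls, and in TG the treated libraries lay below all controls for Pcdhga6 but overlapped them for Pcdhga4. Neither genotype's change passed by itself.

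The call is close to its threshold. Neither gene passed when the compared groups were fitted alone, with a term for the library split, or after values were corrected for length and GC, and none of the 53 was called without WT control 1, TG control 2, TG control 3, WT intranasal 2 or 3, or any of the 3 TG intranasal libraries, each left out in turn. The fold changes stayed negative throughout: over every alternative run Pcdhga4 lay between -2.81 and -1.70 and Pcdhga6 between -2.01 and -1.38. With the compared groups alone, the split term and the length and GC correction they were -2.31, -2.40 and -2.02 for Pcdhga4 and -1.77, -1.52 and -1.45 for Pcdhga6. With the split term TG control 3 is in effect the only TG control library in the interaction. DESeq2 called 7 of the 53, all negative: Pcdhga4, Pcdhga6, Pcdhgc3, Pcdhgb4, Pcdhgb5, Pcdhga12 and Pcdh11x. This was 13.2% of the 53, beside 15.3% of all genes.

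As a group the gamma genes had negative interactions in 21 of 21 cases, with a median of -1.64 against -0.05 over all genes. The beta median was -0.70 (19 of 21 negative) and the alpha median -0.71 (7 of 10 negative). At an unadjusted p of 0.05, 17 of the 53 were negative, 11 of them gamma genes, beside 14.7% of all genes, and 0 were positive, beside 13.9%. Without TG control 2 the gamma median was -1.12, and without WT control 1 and TG intranasal 3 together it was -1.04. Pcdha12 (-1.54 ± 0.57, adjusted p = 0.0921), Pcdha1 (-2.57 ± 1.43, adjusted p = 0.247), Pcdhb21 (-3.34 ± 1.19, adjusted p = 0.0849) and Pcdhb16 (-1.32 ± 0.50, adjusted p = 0.0991) had the smallest p in alpha and beta.

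**Figure D4:**
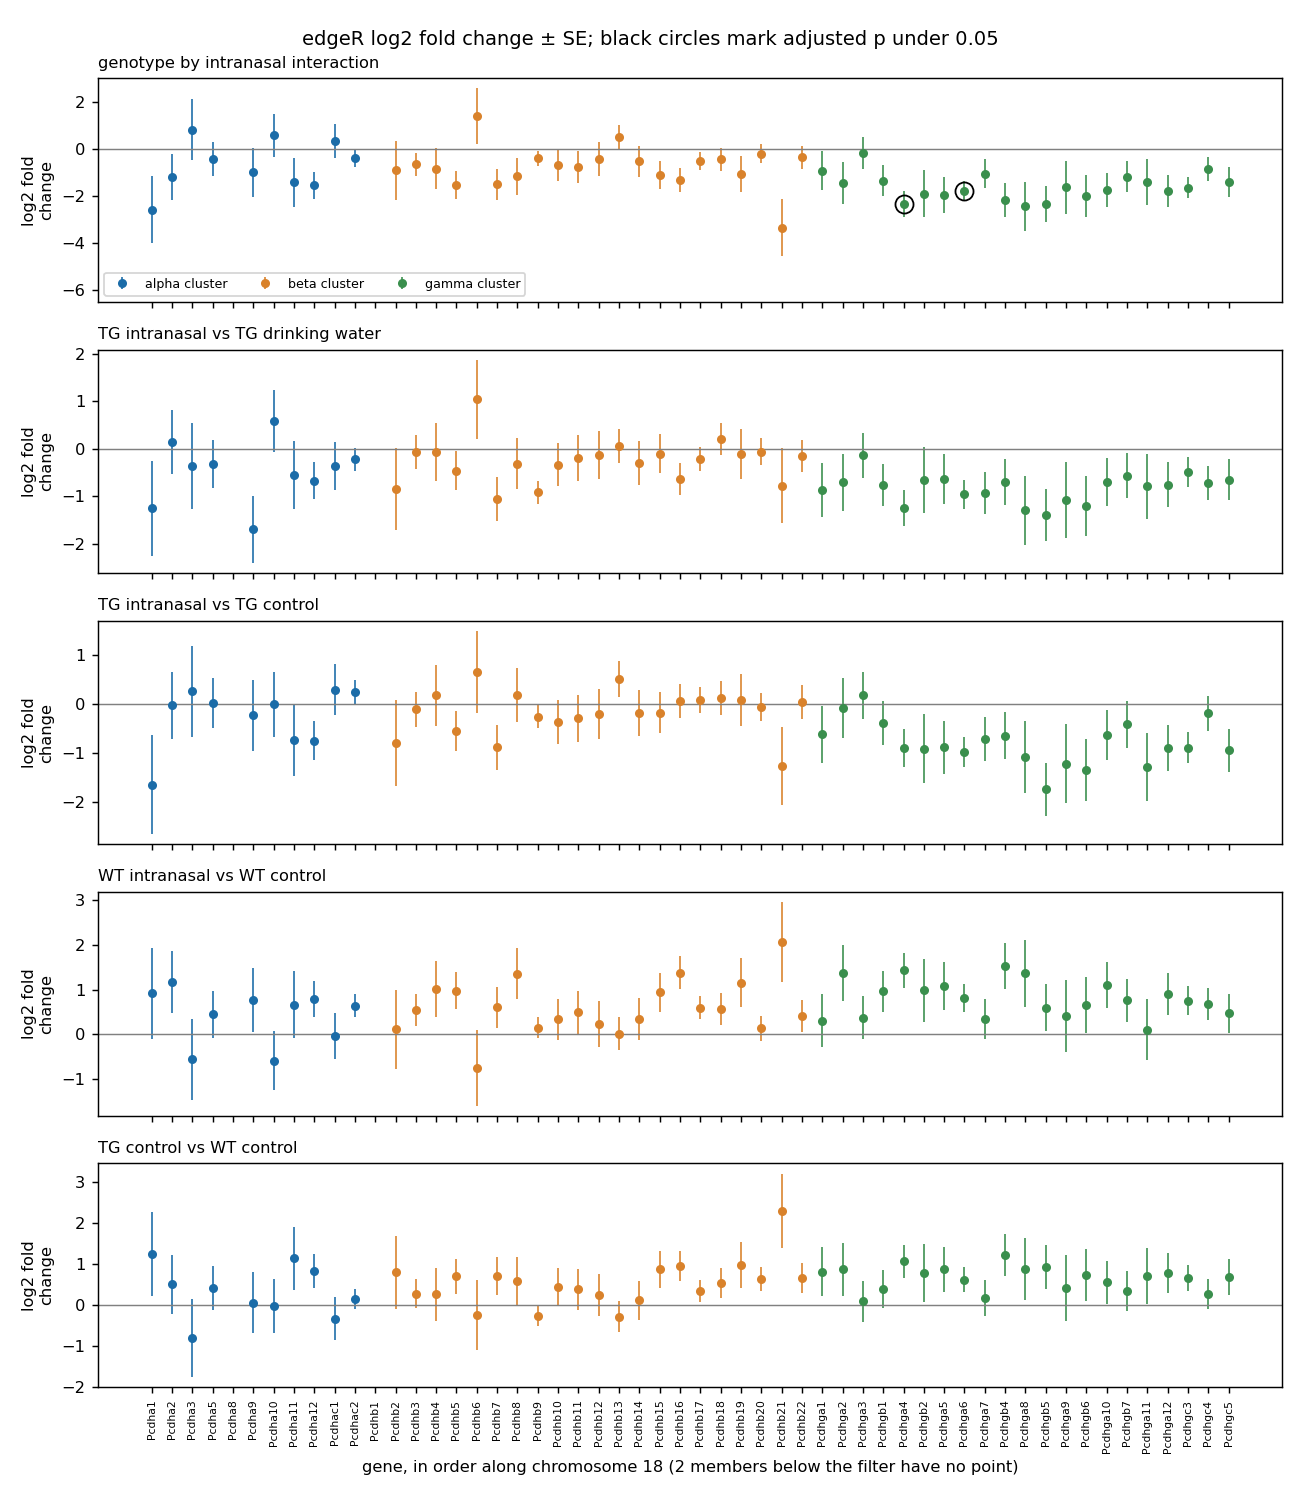
edgeR log2 fold change with its SE for the 52 clustered genes tested, in order along chromosome 18, in the interaction and 4 comparisons between groups; black circles mark an adjusted p under 0.05. The gamma genes (green) lie below 0 in 21 of 21 cases in the interaction and in TG intranasal against TG drinking water, and above 0 in 21 of 21 in WT intranasal and in TG control against WT control, with Pcdhga4 and Pcdhga6 circled in the interaction.

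None of the C-type isoforms passed in edgeR's main fit, which used the default filter and no added term, and differences between isoforms were not tested. Pcdhgc3, which binds Axin1, had 39.9, 45.8 and 40.6 CPM in TG intranasal, 46.7, 117 and 70.0 CPM in TG control, 61.5, 85.5 and 105 CPM in WT intranasal and 25.9, 70.5 and 52.7 CPM in WT control. Every TG intranasal library lay below every TG control library, while the WT groups overlapped. Its interaction of -1.64 ± 0.45 had an adjusted p of 0.0505, just above the threshold. In other edgeR fits it passed with no filter (adjusted p = 0.0307), at least 1 CPM in 3 libraries (0.049) and the replicate block (0.00708). It was not called with the compared groups only, the library-split term or the length and GC correction.

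Pcdhgc5, which binds GABA-A receptors, had 18.2, 16.3 and 6.37 CPM in TG intranasal, 18.8, 25.0 and 20.2 CPM in TG drinking water, 15.04, 35.7 and 27.5 CPM in TG control, 20.3, 20.4 and 27.2 CPM in WT intranasal and 5.64, 27.7 and 15.4 CPM in WT control. Its interaction was -1.41 ± 0.62 (adjusted p = 0.148). Pcdhgc4 had 6.20, 4.39 and 5.93 CPM in TG intranasal, 5.63, 11.99 and 9.70 CPM in TG drinking water, 3.99, 9.65 and 5.22 CPM in TG control, 6.33, 7.37 and 11.4 CPM in WT intranasal and 3.29, 6.07 and 6.29 CPM in WT control. Its interaction was -0.86 ± 0.51 (adjusted p = 0.279). Of the C-types the alpha isoforms had the interactions nearest to 0: Pcdhac2 at -0.40 ± 0.35 (adjusted p = 0.478) and Pcdhac1 at 0.34 ± 0.73 (adjusted p = 0.799). Pcdhac1 averaged 1.12 to 1.76 CPM in the 5 groups, with overlap throughout.

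Pcdh11x lay lower in most TG libraries than in the WT libraries. Genotype and the library split largely coincide over the 15 libraries, so their parts in this difference cannot be told apart. It had 1.11, 1.48 and 0.711 CPM in TG intranasal, 2.61, 2.59 and 2.22 CPM in TG drinking water, 5.63, 2.10 and 0.754 CPM in TG control, 9.03, 14.8 and 14.8 CPM in WT intranasal and 4.63, 9.04 and 8.40 CPM in WT control. By group mean the order was WT intranasal (12.9 ± 3.31 CPM), WT control (7.36 ± 2.38), TG control (2.83 ± 2.52), TG drinking water (2.47 ± 0.222) and TG intranasal (1.10 ± 0.383; SD, n = 3 each). All TG libraries but TG control 1 lay below all WT libraries, and TG control 1 lay above WT control 1 only. TG control and TG drinking water did not differ beyond their spread, nor did WT intranasal and WT control pass a test.

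No change of Pcdh11x passed in edgeR's main fit. Its log2 fold change was -1.40 ± 0.49 in TG control against WT control (adjusted p = 0.184), 0.80 ± 0.46 in WT intranasal against WT control (adjusted p = 0.3), -1.36 ± 0.51 in TG intranasal against TG control (adjusted p = 0.51) and -1.18 ± 0.51 in TG intranasal against TG drinking water (adjusted p = 0.658). In TG drinking water against TG control it was -0.18 ± 0.50 (adjusted p = 0.972). The interaction was -2.16 ± 0.69 (adjusted p = 0.0636, and 0.02 in DESeq2). In other edgeR runs it passed with no filter (adjusted p = 0.0484), the replicate block (0.0474) and without WT intranasal 1 (0.0451), but not with the compared groups only (0.0968). TG control 1, a pituitary-rich library, moved the fold changes of Pcdh11x: without it the TG intranasal change was -0.37 and the TG drinking water change 0.82, while the genotype difference was -2.39 (adjusted p = 0.0638).

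The level of Pcdh11x in TG control sorted with the library split: TG control 1 and TG control 2, on the side with more of the unnamed row, had 5.63 and 2.10 CPM, and TG control 3 on the other side 0.754 CPM. Within TG control the split holds 2 libraries against 1, which is too few for a test. TG control is also the only group with libraries on both sides, so a term for the split rests on that group alone. With this term the genotype difference, in effect TG control 1 and 2 against WT control, was -0.93 ± 0.43 (adjusted p = 0.273). The TG carnosine groups are then in effect set against the single library TG control 3. On that basis the interaction was -0.27. The change in TG intranasal against TG control turned positive, at 0.53, as did that in TG drinking water, at 1.71. The 5 rows whose log2 CPM followed that of Pcdh11x most closely over the 15 libraries were Lcat, an acyltransferase that forms cholesteryl esters (Pearson r = 0.869), the unnamed row itself (0.85), Taf3, a subunit of the general transcription factor TFIID (0.848), Rpph1, the RNA of ribonuclease P (0.842), and Malat1, a nuclear long noncoding RNA (0.829). They were the highest among 15817 genes compared, and all points share library depth and the split. Malat1 had 208 to 371 CPM in the 6 TG carnosine libraries, 978, 895 and 218 CPM in TG control and 556 to 1040 CPM in the 6 WT libraries.

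**Figure D5:**
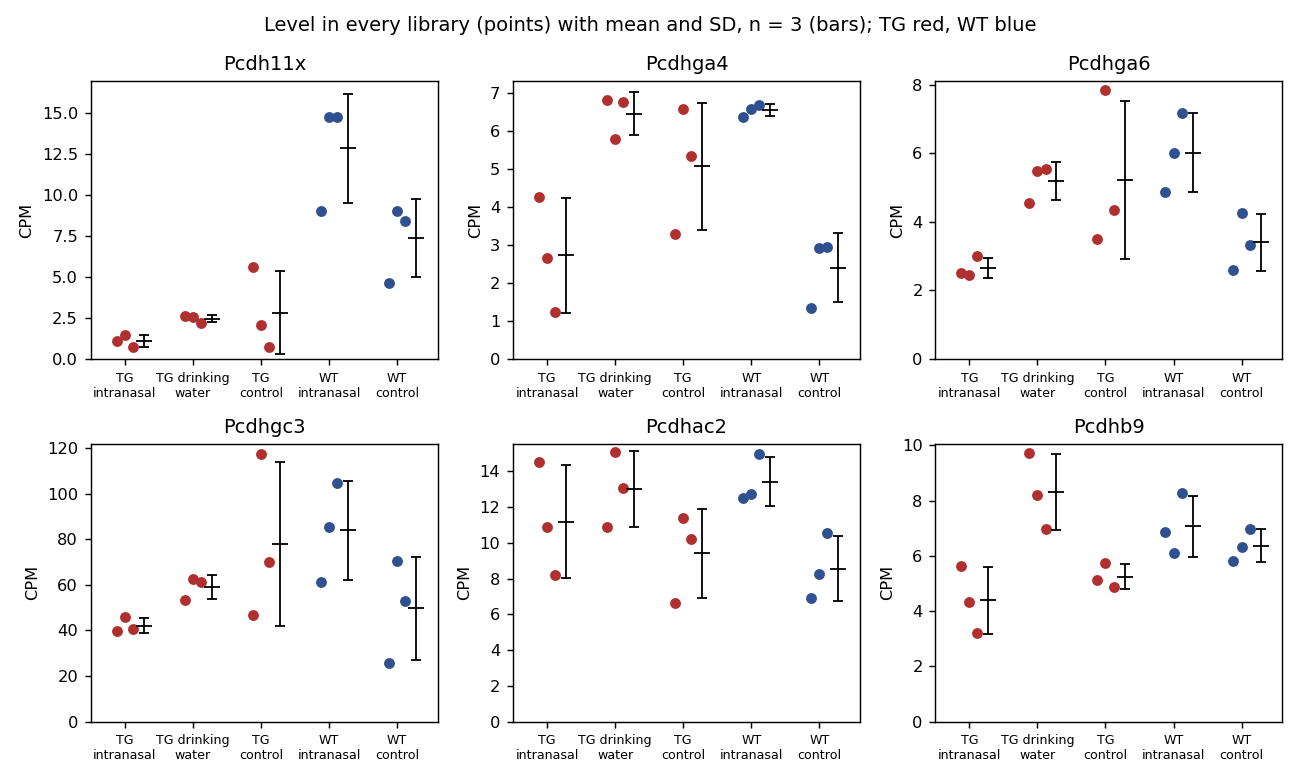
CPM of Pcdh11x, Pcdhga4, Pcdhga6, Pcdhgc3, Pcdhac2 and Pcdhb9 in each library (points, TG red and WT blue) with the group mean and SD (bars, n = 3). Pcdh11x reaches 9.03 to 14.8 CPM in WT intranasal and at most 5.63 CPM in TG mice, and Pcdhga6 in TG intranasal (2.46 to 2.99 CPM) lies below every TG control and TG drinking water library.

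Genes around the protocadherins were described from 6 lists, and calls occurred only in the interaction. There edgeR called 2.32% of all 15818 genes, 0.898% in the negative direction. Over all genes the median interaction was -0.05, and 47.4% were positive. The interaction also ran with transcript length over all genes (Spearman's rho -0.595). The lists were not matched for length, and their genes were not followed in the alternative fits. The part of length in the list values was not tested. Among 27 regulators of the clusters, which include CTCF, cohesin and DNA methylation enzymes, 26 had a negative interaction (median -0.67) and 1 passed, the de novo DNA methyltransferase Dnmt3a. It had 47.1, 49.6 and 47.6 CPM in TG intranasal, against 52.1, 73.1 and 49.9 CPM in TG control, and 59.0, 57.9 and 72.7 CPM in WT intranasal, against 41.0, 42.0 and 45.1 CPM in WT control. In neither genotype did treated and control libraries overlap, and the interaction was -0.84 ± 0.21 (adjusted p = 0.0487). Ctcf itself was level, at 56.8 ± 8.20 CPM in TG intranasal, 64.4 ± 12.6 in TG control, 63.2 ± 4.11 in WT intranasal and 60.9 ± 7.40 in WT control (SD, n = 3 each; interaction -0.24 ± 0.22, adjusted p = 0.505).

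Of 12 other large cadherins tested all 12 had negative interactions (median -1.15) and 2 passed. Fat1, an atypical cadherin of cell growth and polarity, had 15.2, 18 and 19.3 CPM in TG intranasal, against 21.0, 55.1 and 18.6 CPM in TG control, and 24.7, 42.2 and 55.1 CPM in WT intranasal, against 15.6, 18.8 and 19.1 CPM in WT control (interaction -2.04 ± 0.47, adjusted p = 0.0487). Celsr1, a planar polarity cadherin, averaged 2.53 ± 0.837 CPM in TG intranasal, 7.46 ± 5.09 in TG control, 6.44 ± 2.00 in WT intranasal and 2.70 ± 1.80 in WT control (interaction -2.79 ± 0.71, adjusted p = 0.049). Fat1 was highest in TG control 2 and WT intranasal 2 and 3, the libraries with the most astrocyte marker RNA, but it also reached 36.3, 41.6 and 33.5 CPM in TG drinking water, where astrocyte markers summed to 2780 to 3240 CPM. The part of astrocyte RNA in these values was not tested.

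In the other lists no gene passed. All 10 non-clustered protocadherins tested had negative interactions (median -0.94, smallest p Pcdh10 at -0.98 ± 0.30, adjusted p = 0.0602), as had all 18 other synaptic adhesion genes (median -0.72, Cadm1 at -0.92 ± 0.29, adjusted p = 0.064). Of 15 classical cadherins and catenins 14 were negative (median -0.41, Ctnnd2 at -0.94 ± 0.27, adjusted p = 0.0545). Of 17 intracellular partners 10 were negative (median -0.14), and the smallest p there was positive, Brk1 of the WAVE complex at 1.18 ± 0.32 (adjusted p = 0.0505).

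Transcript length ran with the fold changes of all genes. Across 15081 genes, which are not independent replicates, Spearman's rho between the log2 fold change and transcript length was -0.595 in the interaction, -0.462 in TG intranasal against TG control, -0.358 in TG intranasal against TG drinking water, 0.571 in WT intranasal against WT control and 0.548 in TG control against WT control. The median transcript length was 4723 bases for the 53 genes and 3411 for all. After each library was corrected for length and GC, the gamma medians were -1.34 in the interaction, -0.68 in TG intranasal against TG control, -0.69 against TG drinking water, 0.63 in WT intranasal and 0.57 in TG control against WT control. Without the correction they were -1.64, -0.89, -0.76, 0.76 and 0.70 in the same order. No interaction call among the 53 remained after the correction. The part of transcript length in the gamma values was not tested. The alpha median was -0.27 in the interaction, where it was -0.71 without the correction, 0.38 in WT intranasal and 0.02 in TG control against WT control, and the beta medians there were -0.56, 0.37 and 0.32. In TG intranasal against TG control the alpha median was 0.14, where it was -0.01 without the correction. For TG drinking water against TG control rho was -0.163 and the corrected gamma median 0.19.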

How the data were processed

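The authors deposited whole-number counts per gene for 15 libraries of total RNA (mirVana kit, Illumina libraries), per the labels' protocols; the values carry no normalization. Aligner, counting program, genome build and strand handling: not given in the sources used here. A RefSeq table of GRCm38.p6 named 24374 of 24454 gene IDs, and the 80 unnamed rows held 0.148% to 6.23% of counts. Gene order came from the same RefSeq table, and lengths and shared exons came from GENCODE vM21. No coordinates are printed because the build of the counts is unknown.

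The tests used edgeR 4.0.16 in R 4.3.3. filterByExpr kept 15818 genes, TMM scaled the libraries, and 1 mean per group was fitted to all 15 libraries by quasi-likelihood (common biological coefficient of variation 0.244). Adjusted p-values are Benjamini-Hochberg over all genes tested, called under 0.05, in 6 contrasts, several of which share control libraries. SE is the log2 fold change divided by the root of F. Log2 CPM used a prior count of 2. The fit was also run on simulated counts. These held no library split, tissue differences or length effect, so that run does not bear on those. The members and lists were chosen with earlier results of these data known. Genes were named by a rule: Pcdh11x, the C-type isoforms, called genes, the 2 smallest p per cluster and comparison, the extremes by level, genes below the filter, and for each list the called genes or the smallest p, printed for the interaction. Thy1, Ctcf, Gabra6 and genes named for separated libraries or their place beside the clusters were added after the values were seen. Alternatives were DESeq2 1.42.0, RLE or upper-quartile scaling, other filters, fitting only the groups compared, a replicate block, a library-split term, a loess correction for length and GC and leaving out libraries. Of these, 2 combinations of left-out libraries were added after the data were seen.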

Additional observations from a re-analysis of the deposited data

Results flagged for a closer look

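2 genes were singled out because the change with intranasal carnosine differed between the genotypes by a test of the difference itself. The interaction of Pcdhga4 was -2.32 on the log2 scale, with intranasal libraries that lay above the controls in 3 of 3 cases in WT and a lower mean in TG (2.72 ± 1.51 CPM in TG intranasal, 5.06 ± 1.66 CPM in TG control, SD, n = 3 each). That of Pcdhga6 was -1.79, with 3 of 3 treated libraries above all controls in WT and 3 of 3 below all controls in TG. Both had an adjusted p of 0.0487 in edgeR's quasi-likelihood test, close to the threshold. Neither passed with the compared groups only (adjusted p = 0.0772 for each), the library-split term or the length and GC correction.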

How the results depend on the processing

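The labels give the replicate numbers no shared source. Deviations of same-numbered libraries correlated at -0.202 to 0.242 (median 0.04, 12 of 30 pairs over 0.1), against a median of -0.04 and 10 of 60 pairs over 0.1 for other numbers, and 27 of 60 library-by-group comparisons had their best match in the own number. Each comparison picked 1 of 3 libraries, and each pair was used from both sides, so some such matches arise without pairing. These values are at most a hint of shared numbers from the data, not the design. Since not every pair exceeded 0.1, the numbers were not taken to pair the samples. With a replicate block, WT intranasal against WT control had 4 of the genes called (Pcdhgb4, Pcdhgc3, Pcdhga4 and Pcdhb16) and the interaction 9, which is 7.55% and 17% of the genes beside 10% and 16.4% of all genes. Against 0 called in WT intranasal against WT control, DESeq2 had 2 (9.12% of all genes) and no filter 1 (2.69%). Against 2 called in the interaction, DESeq2 had 7 (15.3% of all genes) and no filter 4 (7.27% of the genes, 6.42% of all), while the count was 0 with the compared groups only, the term for the library split, the length and GC correction, without WT intranasal 2 and 3, and without WT control 1 and TG intranasal 3 together. Leaving out 1 library gave 0 to 7 calls in the interaction (7 without WT control 2, 5 without TG control 1 or WT intranasal 1, 1 without WT control 3), 0 to 1 in WT intranasal and 0 elsewhere. Without both pituitary-rich libraries TG intranasal against TG control had 1. Leave-one-out medians over the genes were 0.23 to 0.75 for TG control against WT control, 0.45 to 0.97 for WT intranasal, -0.53 to 0.02 for TG intranasal against TG control, -0.14 to 0.50 for drinking water, -0.72 to -0.42 between routes and -1.39 to -0.78 for the interaction. Pcdh11x changed sign in TG intranasal against TG control with the split term (0.53), and in TG drinking water against TG control with the split term (1.71), without TG control 1 (0.82, with -0.64 to 0.82 over the libraries left out) and without both pituitary-rich libraries (0.82). The 2 values with the split term rest on TG control 3 as the only TG control library. The cause of these shifts was not tested. The shallowest libraries, WT control 1 and TG control 1, limit the low isoforms most.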

Other observations

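The genes next to the clusters on chromosome 18 were looked up after the values of the protocadherins were seen. Taf7, a TFIID subunit gene that lies between the beta and gamma clusters, had 11.2, 12.3 and 14 CPM in TG intranasal, against 9.98, 6.71 and 6.21 CPM in TG control, and 9.37, 8.94 and 7.56 CPM in WT intranasal, against 12.1, 6.25 and 8.47 CPM in WT control. Its interaction was 0.76 ± 0.38 (edgeR, adjusted p = 0.201), of the opposite sign to the gamma median. Hdac3, a histone deacetylase gene beyond the gamma cluster, had an interaction of 0.69 ± 0.25 (adjusted p = 0.0861), and Diaph1, a formin gene there, of -0.80 ± 0.41 (adjusted p = 0.208). None of the 3 passed.

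Gfap, the intermediate filament of reactive astrocytes, was among the astrocyte markers and had 1270, 1090 and 782 CPM in TG intranasal and 1130, 827 and 569 CPM in TG control. Slc1a3, an astrocyte glutamate transporter, had 404, 364 and 474 CPM in TG intranasal and 437, 1040 and 591 CPM in TG control, with its highest value in TG control 2.

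The pseudogene Pcdhgb8 averaged 0.839 ± 0.342 CPM in TG intranasal, 1.58 ± 0.559 in TG drinking water, 1.75 ± 0.371 in TG control, 2.95 ± 1.10 in WT intranasal and 1.31 ± 1.00 in WT control (SD, n = 3 each). The 3 TG intranasal libraries lay below the 3 TG control libraries.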
